A study of Mus musculus with 60 samples.

Results

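Malat1, Neat1, Miat, Meg3, Rian, Mirg and H19 are long non-coding RNAs that stay largely in the nucleus or come from imprinted loci, or both. They were taken by symbol, from a list drawn up with earlier results of these data known, and all 7 are listed among the 55290 features of the poly-A tables and among the 10040 features of the lncRNA tables. RNA had been taken from whole organs (brain, heart, kidney, liver and spleen) of 6 male mice aged 4 months, 3 deficient in Ftsj1 (labelled Ftsj1_DF) and 3 wildtype (labelled WT). Ftsj1 encodes a methyltransferase that places 2′-O-methyl groups on tRNA. From every organ and mouse there was a poly-A library and a library of total RNA, which the title describes as depleted of rRNA, 60 libraries in 20 groups of 3. The allele behind the deficiency, the strain background and the cells in which it acts are not stated in the labels or design text. Of the 6 mice, 4 were brothers and the other 2 were brothers as well, both genotypes occurred in each of these sets, all mice were fed ad libitum and none received a treatment.

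Long non-coding RNAs of this kind act as RNA. Malat1 is concentrated in nuclear speckles, where splicing factors are stored, and Neat1 is the scaffold on which paraspeckles assemble. Miat, also called Gomafu, is a nuclear RNA of neurons whose repeats bind splicing factors. Meg3, Rian and Mirg lie in a row on chromosome 12 and are transcribed from the maternal copy of the Dlk1-Dio3 domain, Rian as a host of C/D box snoRNAs and Mirg as a host of microRNAs. H19 lies beside Igf2 on chromosome 7, is transcribed from the maternal copy, hosts a microRNA, and is abundant in the fetus and retained after birth mainly in muscle.

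The 3′ ends of these RNAs are described because a poly-A library keeps RNA that an oligo-dT bead can hold. Their part in the levels of the library kinds was not tested. Malat1 and the long form of Neat1 do not end in a normal poly-A tail: RNase P cuts them, and U-rich stretches fold around an A-rich stretch into a triple helix at the new end. The sequences of the longest GENCODE M21 transcripts (build GRCm38, 5′ to 3′, DNA letters) are shown for Malat1, Neat1, Meg3, Mirg and H19. In the Malat1 and Neat1 lines capitals mark the U-rich motif TTTTNCTTTT and the A-rich tract at the processed end, and in the Meg3, Mirg and H19 lines capitals mark the polyadenylation signal AATAAA.
Malat1-201, chromosome 19, bases 6596 to 6750: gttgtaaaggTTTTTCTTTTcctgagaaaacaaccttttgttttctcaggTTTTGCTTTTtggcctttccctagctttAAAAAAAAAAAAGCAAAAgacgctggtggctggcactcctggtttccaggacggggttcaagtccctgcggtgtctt
Neat1-201, chromosome 19, last 60 bases: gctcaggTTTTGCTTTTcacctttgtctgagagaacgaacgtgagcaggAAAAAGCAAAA
Meg3-209, chromosome 12, last 60 bases: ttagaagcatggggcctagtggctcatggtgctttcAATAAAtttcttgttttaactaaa
Mirg-204, chromosome 12, last 60 bases: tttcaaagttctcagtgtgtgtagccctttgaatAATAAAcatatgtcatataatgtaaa
H19-202, chromosome 7, last 60 bases: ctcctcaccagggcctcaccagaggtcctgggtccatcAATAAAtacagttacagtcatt

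Searched on the transcript strand, TTTTNCTTTT was in the last 60 bases of Neat1-201 and of 0.269% of the longest transcripts of 13372 GENCODE lncRNA genes. In Malat1-201, a transcript of 6983 bases whose annotation runs on past the RNase P site, the first of the motifs shown starts at base 6606 and the run of 12 A at base 6674. The tRNA-like piece that RNase P releases follows the A-rich tract. AATAAA was in the last 60 bases of 5 of the 7 longest transcripts, against 30.6% of the lncRNA transcripts searched. The 5 were Malat1-201 at its annotated end, Meg3-209, Rian-201, Mirg-204 and H19-202. The ends of Rian-201 and Miat-205 are not shown, and Miat-205 had neither AATAAA nor TTTTNCTTTT in its last 60 bases. Runs of A inside a transcript can also be held by oligo-dT, and the longest had 16 bases in Meg3-209, 15 in Rian-201 and 12 in Malat1-201. Neat1-201 has 20771 bases and includes the sequence of the short form, which ends in a normal tail, so reads of the 2 forms cannot be told apart over that stretch.

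Miat was marked by its repeats. The motif ACTAAC, which binds splicing factors as ACUAAC in the RNA, occurred 11 times in the 9163 bases of Miat-205, 4 times in the 20771 bases of Neat1-201, once each in Meg3-209 and Mirg-204, and was not found in the longest transcripts of Malat1, Rian and H19. As many ACTAAC per kb as in Miat-205 were held by 0.330% of 3936 lncRNA transcripts of at least 2000 bases. The densest stretch, with 4 copies in capitals, is this.
Miat-205, chromosome 5, bases 4932 to 5081: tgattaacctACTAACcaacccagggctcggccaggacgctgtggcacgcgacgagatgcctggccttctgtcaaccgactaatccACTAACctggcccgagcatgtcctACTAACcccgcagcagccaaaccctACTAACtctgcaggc

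Only tables of the authors' comparison were analysed here, with a mean over the 6 libraries of an organ, a log2 fold change (Ftsj1_DF minus WT), its standard error and p-values for each feature; there is no value per mouse. Depth per library is therefore unknown, and whether the mice of the groups overlap for a given RNA cannot be shown. The group means given below are those implied by the deposited mean and fold change. Levels are given in CPM of the table's summed level, that is, the deposited mean divided by the sum of all means in its table and scaled as CPM are. Ftsj1 stood at 8.79% to 15.4% of WT in the 5 poly-A rows of the authors' deposited tables, which goes with the labels. Markers fixed for each organ summed to between 6014 CPM (spleen) and 104371 CPM (liver) of all poly-A signal in their own organ, with Actc1 in heart and Ms4a1 in spleen listed at 0. Spleen also held 6 markers of pancreas at 23362 CPM in all, and liver held them at 891 CPM. In whole organs, fewer cells of a type and less RNA per cell cannot be told apart.

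The 7 RNAs fell into distinct organ patterns, with 4 highest in brain, H19 highest in heart and Malat1 and Neat1 present in every organ. Levels are means over both genotypes. They compare 1 RNA across organs, not 1 RNA with another, since they are not divided by length, and the tables were normalised separately.

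Meg3 was a brain RNA, at 841 CPM in poly-A libraries of brain against 18.5 in heart, 2.57 in spleen, 2.32 in kidney and 1.42 in liver. Rian stood at 262 CPM in brain, 5.71 in heart, 1.19 in spleen, 0.772 in kidney and 0.703 in liver. Mirg stood at 12.5 CPM in brain, 0.546 in heart, 0.102 in spleen, 0.0582 in kidney and 0.0257 in liver. All 3 neighbours thus had the order brain, heart, spleen, kidney, liver, in both library kinds. Relative to the median feature of each table rather than to its sum, brain and heart kept the first and second place for all 3 in both kinds, while the order of the lower 3 organs changed in poly-A libraries and, for Meg3, in total RNA.

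Of the 7, Miat was the most restricted to 1 organ: brain had 24.4 CPM in poly-A libraries, 221 times the next organ, kidney, at 0.110. Spleen had 0.109, heart 0.0559 and liver 0.000700, and the last rests on a mean level of 0.168 normalised counts. In total RNA the brain level of Miat, 701 CPM of the lncRNA table, was 153 times that of kidney.

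H19 was a heart RNA, at 40.1 CPM in poly-A libraries against 1.21 in spleen, 0.446 in brain, 0.187 in liver and 0.144 in kidney. The heart level was 33.2 times that of spleen in poly-A libraries and 40.6 times in total RNA. The order of the 5 organs was the same in both kinds and under both scalings.

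Malat1, the speckle RNA, and Neat1, the paraspeckle RNA, varied least across organs. Malat1 ranged over 5.90-fold in poly-A libraries, from 120 CPM in liver through 243 in brain, 253 in heart and 343 in spleen to 710 in kidney. Neat1 ranged over 9.58-fold, from 31.9 in liver through 62.9 in brain, 170 in spleen and 258 in kidney to 306 in heart. Kidney came first for Malat1 and heart for Neat1 in both library kinds and under both scalings, with heart and spleen changing places for Malat1 under the second. In total RNA liver moved from the last place to the third for Neat1, at 1985 CPM of the lncRNA table, and brain was last at 529 CPM. No spread over samples was available to separate neighbours in these orders, and in poly-A libraries brain and heart differed little for Malat1, as did heart and kidney for Neat1. In total RNA, Malat1 alone took 11.8% of the summed level of the lncRNA table in kidney, 8.68% in spleen, 8.13% in heart, 4.98% in brain and 2.66% in liver.

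**Figure D1:**
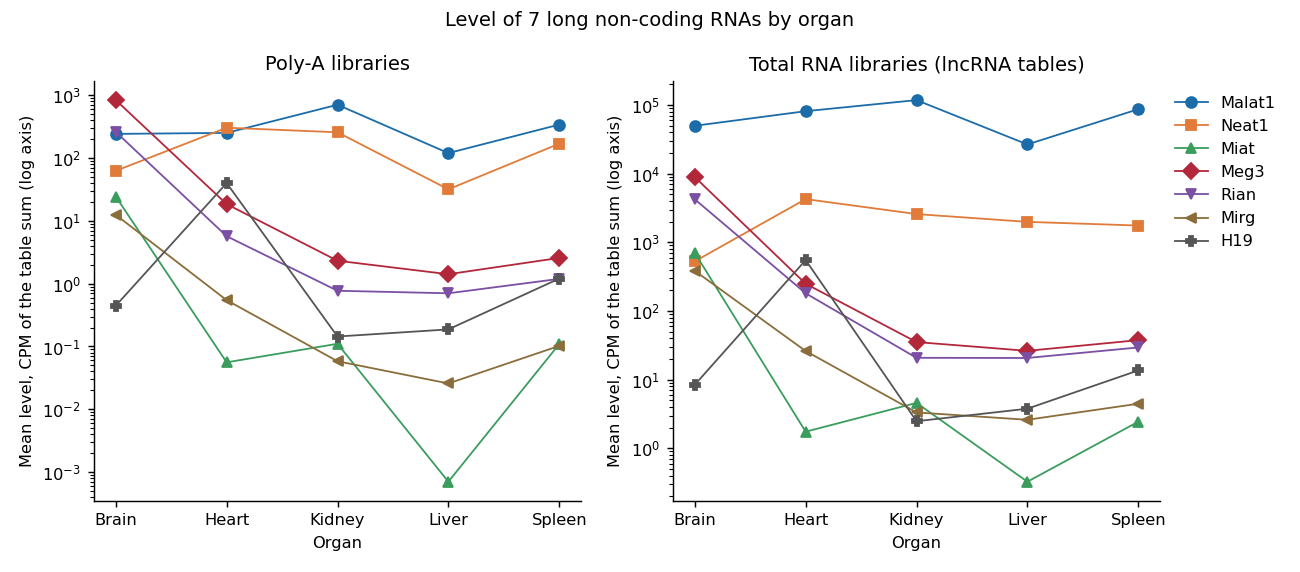
Mean level of the 7 RNAs (colour and marker) in each organ in CPM of the table's summed level, on a log axis, in poly-A libraries (left) and in the lncRNA tables of total RNA (right); lines only join the points of 1 RNA. Meg3, Rian, Mirg and Miat peak in brain and H19 in heart in both panels, while Malat1 and Neat1 stay high in every organ.

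The organ profiles of the neighbours were close to each other. Likeness was measured as the root mean square difference of centred log2 levels over the 5 organs, against 26416 poly-A features. Rian was the third most like Meg3, with a difference of 0.30, after Atp6ap1l and 9330117O12Rik, and Meg3 was the second most like Rian. Mirg came 16th in likeness to Meg3 and 17th to Rian. The features most like Mirg were Gm3510, Rxfp3 and Rgs4, and those most like Miat were Zkscan16, Tceal5 and Gm12709, with differences of 0.21 to 0.31. For H19 they were 2310039L15Rik, Gm6416 and Gm28651, for Malat1 Cep89, Ggct and Mat2a, and for Neat1 Upk1b, Gm13274 and Tex49. Malat1 lies beside Neat1 on chromosome 19. It came 716th in likeness to Neat1, and Neat1 came 5401st in likeness to Malat1, with a difference of 0.82. With 5 organs as points, many features reach a close likeness, and these ranks are a description.

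Between Meg3 and Mirg, RefSeq places 19 snoRNAs, many of them hosted by Rian, and 14 of them are named in the snoRNA tables. These C/D box snoRNAs carry a C box and a D box, and the one with the highest level in brain, AF357425, is shown with both in capitals (GENCODE M21, build GRCm38, 73 bases).
AF357425, chromosome 12: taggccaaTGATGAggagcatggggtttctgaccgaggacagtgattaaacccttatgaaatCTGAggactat

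The snoRNAs followed their hosts in organ level. All 14 were above 0 in brain, 12 in heart, 10 in spleen, 8 in kidney and 4 in liver. Their summed mean level was 483 normalised counts in brain, 44.1 in heart, 10.1 in spleen, 3.10 in kidney and 1.24 in liver. As a share of brain, in CPM of each table, the 14 snoRNAs stood at 9.63% in heart, measured in total RNA. In the same library kind Mirg stood at 6.79%, Rian at 4.27% and Meg3 at 2.79%. In poly-A libraries Mirg stood at 4.37%, Meg3 at 2.20% and Rian at 2.18%. None of the 14 was called between genotypes in any organ, in tables that call none of their features. At an unadjusted p under 0.05 only Gm24564 in brain passed, against 0.546% of all snoRNA features in spleen, 1.34% in liver, 1.41% in kidney, 2.47% in heart and 2.6% in brain. The smallest p was that of Gm24564 in brain, where the authors' deposited table gives a log2 fold change of 0.85 ± 0.39 (SE; p = 0.0284 and adjusted p = 0.998, DESeq2 with Benjamini-Hochberg). In the brain 11 of the 14 had a positive value and in heart 9 of the 12 above 0 a negative one, at levels where in heart only 1 of them reached a mean of 10. These counts of signs were not tested or set against all snoRNA features, and snoRNAs of a shared host are not independent. They thus show neither a rise in brain nor a fall in heart.

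**Figure D2:**
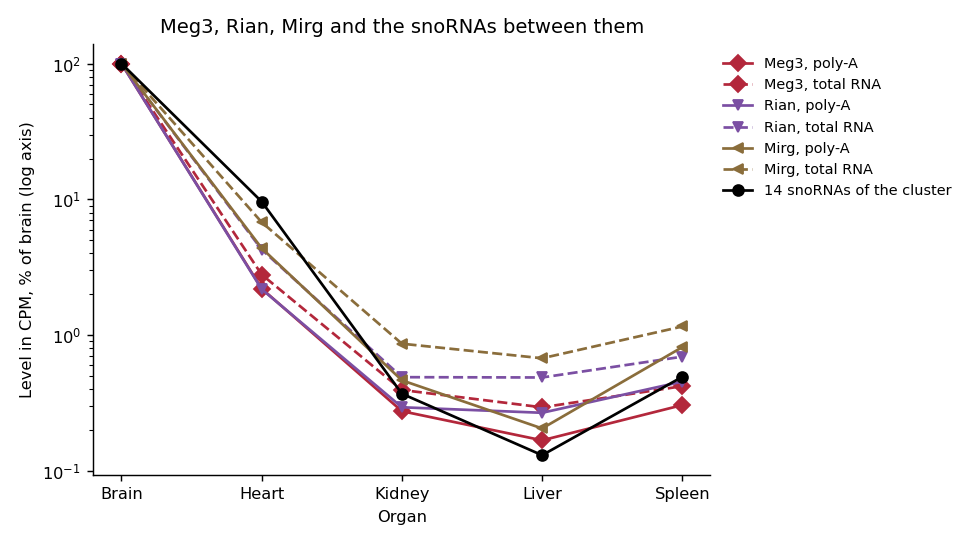
Level (CPM) as a percentage of the brain level (log axis) for Meg3, Rian and Mirg in poly-A (solid) and total RNA libraries (dashed) and for the sum of 14 snoRNAs between Meg3 and Mirg (black); lines only join the points of 1 RNA. Heart stands between 2.18% and 9.63% of brain, and the other 3 organs at 1.16% or less.

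The 7 RNAs differed in their level in total RNA relative to poly-A libraries, with Malat1 highest and Neat1, Meg3 and H19 lowest in most organs. The value is the log2 ratio of the level in total RNA to that in the poly-A table, minus its median over features at a mean of 10 or more in both, so that the length of an RNA cancels. Malat1 was above the median in all 5 organs, by 3.00 in spleen, 2.97 in heart, 2.78 in brain, 2.12 in kidney and 2.05 in liver. Between 78.1% and 87.2% of the features had a lower value, so Malat1 was well up in the range but not at its end.

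Neat1 was on the other side in 4 organs: its value was -1.82 in brain, -1.56 in heart, -1.93 in kidney and -1.61 in spleen. In brain 1.92% of features and in kidney 0.926% of features were lower. Liver stood apart with 0.21, which 54.3% of features did not reach. In liver the deposited mean of Neat1 was 7640 normalised counts in poly-A libraries and 15609 in total RNA, while in kidney it was 87282 and 41575.

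Meg3 was under the median in every organ, between -1.61 and -1.11, and so was H19, between -1.57 and -0.65. Rian was under it too, between -0.88 and -0.36. Mirg was above it in every organ, between 0.05 and 0.91, the highest at a poly-A level under 10 in liver. Thus the 3 neighbours kept 1 order in each organ, with Meg3 lowest and Mirg highest. Miat lay near the median in the 3 organs where it reached 10 in both kinds, at -0.05 in brain, 0.13 in kidney and -0.50 in spleen. The side of 0 depends on what the values are set against. Relative to the ratio of the summed levels, 5 of the 35 values were above 0, against 13 here: Mirg turned to between -1.98 and -1.35, Neat1 in liver to -2.05 and Malat1 in liver to -0.22, with Malat1 in kidney at 0.05.

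**Figure D3:**
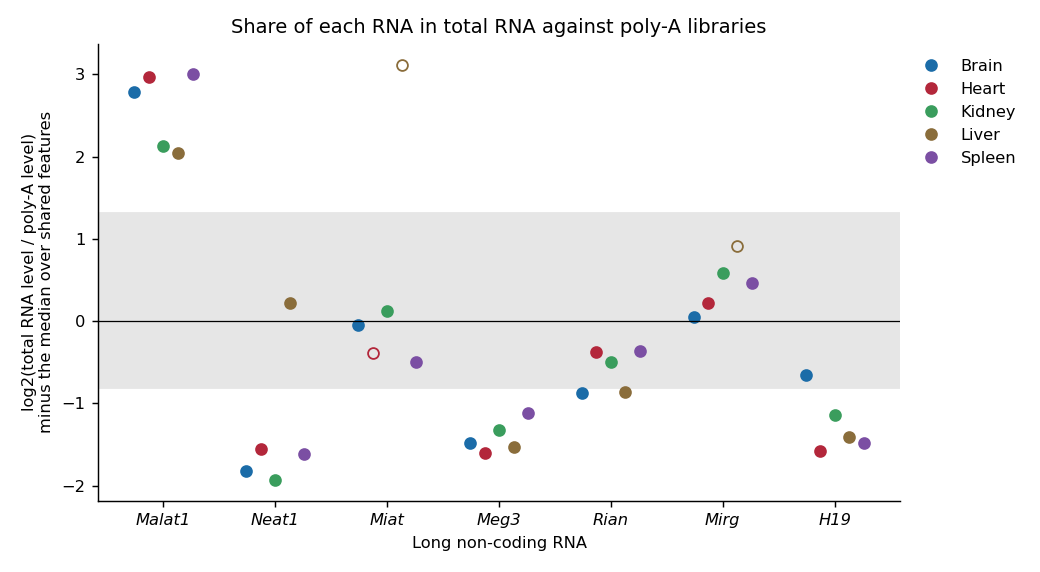
Log2 ratio of the level in total RNA to that in poly-A libraries, minus the median over shared features, for each RNA and organ (colour); open points have a mean level under 10 in at least 1 kind, and the grey band lies within the quartiles of the shared features of every organ. Malat1 is at 2.05 or more in all 5 organs, and Neat1 is at -1.56 or less in 4 and at 0.21 in liver; against the summed levels Malat1 and Neat1 in liver turn to -0.22 and -2.05, and Mirg falls below 0 in every organ.

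Between genotypes, most values of the 7 RNAs were small against their error. In poly-A libraries 33 of the 35 member values carry an adjusted p in the authors' deposited tables, and 2 passed 0.05: Meg3 in heart and Neat1 in liver, both lower in Ftsj1_DF. The share of all tested features past 0.05 was 2.29% in liver, 0.987% in kidney, 0.541% in heart, 0.0741% in spleen and 0.0607% in brain. In total RNA 30 values carry an adjusted p and none passed in the authors' deposited tables, where 1.02% of features passed in liver, 0.681% in heart, 0.41% in kidney, 0.0108% in brain and 0% in spleen. At an unadjusted p under 0.05 there were 6 in poly-A libraries (Malat1, Meg3 and H19 in spleen, Neat1 and Rian in liver, Meg3 in heart), where 10.9% of all features passed in liver, 8.36% in heart, 6.29% in spleen, 5.83% in kidney and 2.94% in brain. In total RNA there were 3 (Meg3 and Rian in heart, Rian in spleen), where 10.3% of all features passed in heart, 5.5% in liver, 3.88% in kidney, 3.54% in brain and 2.7% in spleen. The poly-A and total RNA libraries come from the same mice, so the kinds are given side by side and not as separate evidence, and the p-values measure the spread between mice.

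Meg3 fell in heart. The means implied by the authors' deposited table were 3180 normalised counts in WT and 2054 in Ftsj1_DF poly-A libraries. That was 64.6% of WT (95% interval 54.8% to 76.2%), a log2 fold change of -0.63 ± 0.12 (SE) with adjusted p = 0.000418 in the authors' deposited table (DESeq2, Benjamini-Hochberg), in an organ where 0.331% of features were called lower. In total RNA of the same hearts the means were 3668 and 2765, and the authors' deposited table gives -0.41 ± 0.14 with an adjusted p = 0.138 by DESeq2. The poly-A value minus the total RNA value was -0.22 (95% interval -0.58 to 0.14).

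The neighbours of Meg3 did not pass in heart. Rian had -0.41 ± 0.24 in poly-A libraries and -0.41 ± 0.14 in total RNA (adjusted p = 0.717 and 0.171 in the authors' deposited tables, DESeq2). Mirg had 0.05 ± 0.41 in poly-A libraries, at a mean of 77.2 normalised counts, and -0.40 ± 0.22 in total RNA at a mean of 337, per the authors' deposited tables. In total RNA all 3 values thus lay between -0.41 and -0.40, or 75.3% to 75.7% of WT, while none of them passed.

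Other cell types moved in the same hearts. Of 6 adipocyte markers Lep was called lower in the authors' deposited table and the median log2 fold change was -1.94. They summed to 460 CPM, of which Fabp4, with a value of 0.40, made up 399, and the 5 with negative values summed to 60.9 CPM. Of 5 tested neutrophil markers, 4 were called higher, in a list of 6 that summed to 8.58 CPM. Of all tested heart features, 0.541% were called and 8.36% had an unadjusted p under 0.05. None of 6 liver markers was called, with all 6 negative, a median of -3.28 and 4 at an unadjusted p under 0.05, at 23.9 CPM in all. All 6 lung epithelium markers were negative too, at 5.94 CPM in all, and 5 of them carry no p, among them Scgb1a1 at -9.80 in the authors' deposited table. Without a p, these 5 are not shown to differ between genotypes. None of 6 fibroblast and matrix markers was called, with all 6 negative and a median of -0.09. None of 6 brain markers was called, with all 6 negative, a median of -0.86 and 1 at an unadjusted p under 0.05, at 39.9 CPM. The 6 atrium and 5 tested adrenal markers were all negative without a call, with medians of -0.20 and -0.43. Of 5 tested spleen markers 4 were positive, and of 5 tested heart markers 2. The part of these in the Meg3 value was not tested.

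Neat1 fell in poly-A libraries of liver. The implied means were 9859 normalised counts in WT and 5422 in Ftsj1_DF, or 55.0% of WT (95% interval 39.2% to 77.1%). The authors' deposited table gives -0.86 ± 0.25 with adjusted p = 0.0287 (DESeq2, Benjamini-Hochberg), where 1.41% of liver features were called lower, and adjusted over the 5 organs together the p was 0.0699. In total RNA of the same livers the means were 15195 and 16023, with 0.08 ± 0.26 in the authors' deposited table. Of 5 tested adipocyte markers in liver, Cfd and Cidec were called lower, and of 5 tested neutrophil markers S100a8 and S100a9 were called higher. These lists summed to 16.6 and 4.68 CPM, and 2.29% of all tested liver features were called in either direction. The 6 pancreas markers, at 891 CPM in all, had positive values. Among them Cela1 had 4.09 ± 1.64 (adjusted p = 0.223, DESeq2), and Ctrb1 had 5.86 ± 2.34 without a p in the authors' deposited table. Neither is thus shown to differ between genotypes. The part of the adipocyte, neutrophil and pancreas markers in the Neat1 value was not tested.

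Malat1 in spleen was near the threshold in 1 kind. Poly-A libraries had implied means of 53684 in WT and 34003 in Ftsj1_DF, which is 63.3% of WT (95% interval 50.8% to 79.0%). The authors' deposited table gives -0.66 ± 0.16 with p = 5.06e-05 and adjusted p = 0.0580 (DESeq2). With p-values adjusted over the 5 organs together it passed at 0.0131, and with fold changes centred on the median feature at 0.0408. In total RNA of the same spleens it had -0.08 ± 0.17 in the authors' deposited table, with implied means of 1219280 and 1157450. Malat1 in the other 4 organs had poly-A values between -0.29 and 0.14, and in total RNA all 5 lay between -0.09 and 0.07.

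The difference between library kinds in the genotype change was tested directly, by the deposited values and errors of both kinds, over all features that both tables of an organ test. None of the 35 member values passed after Benjamini-Hochberg adjustment, and 0% of features passed in brain, kidney, liver and spleen and 0.0174% in heart. The values farthest from 0 for their error were those of Neat1 in liver, with a difference of -0.94 (95% interval -1.64 to -0.24), and of Malat1 in spleen, with -0.58 (-1.04 to -0.12). No other member value had an interval of the difference that left out 0. At an unadjusted p under 0.05, these 2 values passed, as did 2.35% of features in spleen, 2.09% in heart, 1.6% in brain, 1.13% in kidney and 1.07% in liver. In simulated data with independent errors, 4.33% to 5.67% of unchanged features did. The real kinds share mice but were treated as independent, so the test may miss differences. That no member value passed does not show that the kinds are alike.

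Spleen had 3 further values of size. Meg3 had implied means of 413 and 246 in poly-A libraries, with -0.75 ± 0.24 and adjusted p = 0.305 in the authors' deposited table (DESeq2), and -0.32 ± 0.24 in total RNA. H19 had implied means of 104 in WT and 205 in Ftsj1_DF, with 0.97 ± 0.41 and adjusted p = 0.637 in the authors' deposited table (DESeq2), and 1.15 ± 0.72 in total RNA. Mirg had 1.51 ± 0.84 in poly-A libraries at a mean of 13.1 normalised counts, and 0.24 ± 0.38 in total RNA, per the authors' deposited tables. None of these passed. The 6 pancreas markers in spleen had fold changes between -1.86 and 0.48, with standard errors between 1.33 and 2.36, and none was called. Of the 6 neutrophil markers none was called either, where 0.0741% of all tested spleen features were. All 6 neutrophil markers were positive, with a median of 1.10. Of these, 4 had an unadjusted p under 0.05, against 6.29% of all tested features. The part of both marker lists in the spleen values was not tested.

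Rian in liver had a higher value in both kinds without passing. Its implied means were 120 in WT and 217 in Ftsj1_DF poly-A libraries. The authors' deposited tables give 0.85 ± 0.31 (adjusted p = 0.134, DESeq2) and, in total RNA, 0.60 ± 0.36. Meg3 in liver had 0.33 ± 0.27 and 0.12 ± 0.26 in the authors' deposited tables, and Mirg and Miat were at a poly-A mean under 10 there and carry no adjusted p.

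In brain, where Meg3, Rian, Mirg and Miat are highest, none of the 7 passed. Poly-A values lay between 0.02 (Neat1) and 0.22 (Meg3, with an SE of 0.36) in the authors' deposited table, and total RNA values between -0.13 (Neat1) and 0.13 (Rian). Rian had the smallest p of the 7 in brain poly-A libraries, with 0.18 ± 0.09 and p = 0.0512 (DESeq2) in the authors' deposited table, and its 95% interval allowed 99.9% to 128% of WT. For Meg3 the interval was 71.6% to 191% of WT in poly-A libraries and 80.8% to 133% in total RNA.

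Of the remaining values none passed. Rian in spleen had -0.36 ± 0.18 in total RNA, 77.7% of WT (95% interval 61.1% to 98.8%), and -0.23 ± 0.30 in poly-A libraries, per the authors' deposited tables. H19 in heart, its main organ, had implied means of 5644 in WT and 5676 in Ftsj1_DF, or 101% of WT (95% interval 74.9% to 135%), and 96.0% (74.9% to 123%) in total RNA, from the authors' deposited tables. Neat1 outside liver had poly-A values between -0.13 and 0.06 in the authors' deposited tables. Miat outside brain was measured at a poly-A mean of 37.3 normalised counts or fewer, and its values there ran from -1.28 to 1.30 in the authors' deposited tables with standard errors between 0.47 and 4.03. The 95% interval was 52.8% to 191% of WT in kidney and 62.8% to 448% in spleen, so only a large change could be seen there. In heart and liver, with standard errors of 1.68 and 4.03, even a large change of Miat could have been missed.

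**Figure D4:**
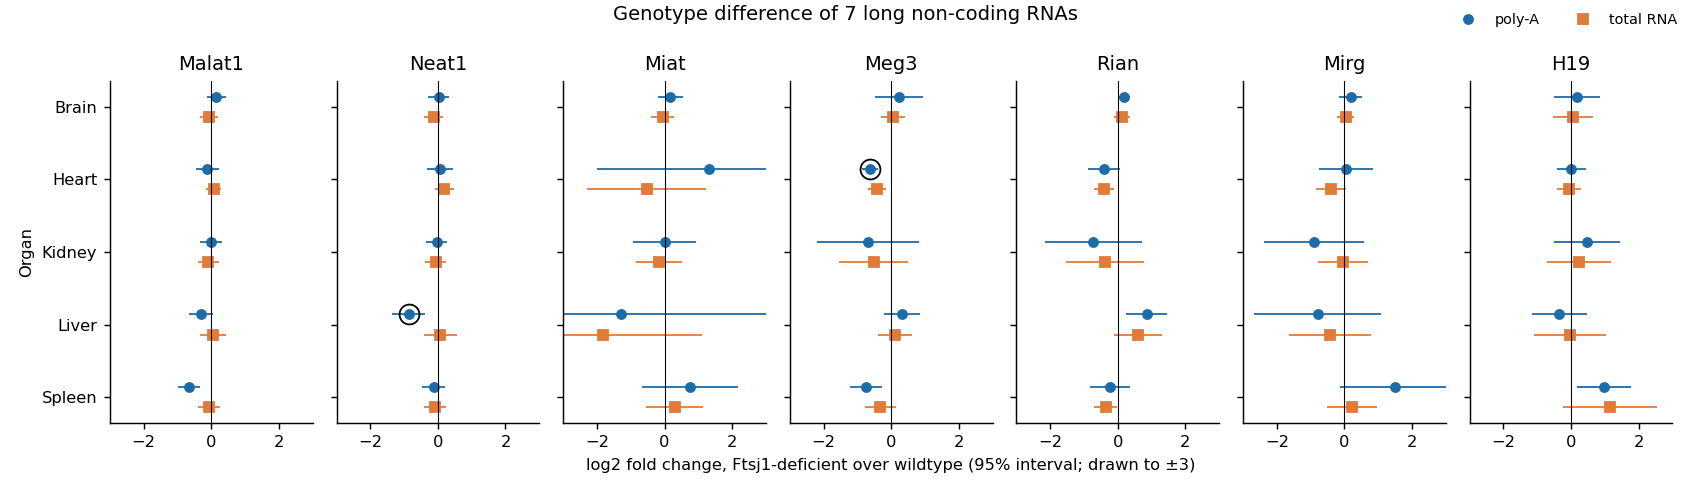
Log2 fold change (Ftsj1-deficient over wildtype) with its 95% interval for each RNA (panels) and organ, in poly-A libraries (blue circles) and total RNA (orange squares), with intervals cut at ±3; black rings mark the values past an adjusted p of 0.05. The rings are at Meg3 in heart and Neat1 in liver, both in poly-A libraries.

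The error behind these values differed greatly between members and organs. For each member the SE was set beside those of features within 1.5-fold of its level in the same table. In kidney poly-A libraries Meg3 had an SE of 0.78 against a median of 0.15, larger than 99.1% of them, and Rian had 0.73 against 0.21, larger than 98.8%. In total RNA of kidney the same RNAs had 0.53 against 0.18 and 0.60 against 0.20. So the kidney values of Meg3, -0.68 in poly-A libraries and -0.52 in total RNA, and of Rian, -0.72 and -0.38, cannot tell a fall from no change.

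Kidney also carried adrenal transcripts. The 6 adrenal markers summed to 23.1 CPM there, with Star, which brings cholesterol into mitochondria for steroid synthesis, at 15.0. All 6 had negative fold changes in the authors' deposited table, between -8.49 and -2.46, and all 6 carry no p, as do 54 of the 22914 kidney features at a mean of 10 or more. Of the pancreas markers, Prss2, Cpa1 and Ctrb1 also carry no p in kidney, with 8.22, 8.19 and 8.38 in the authors' deposited table, in a list that summed to 79.1 CPM. Without a p or a value per mouse, these adrenal and pancreas values are not shown to be a change between genotypes. The part of adrenal or pancreas tissue in the kidney spread of Meg3 and Rian was not tested.

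Other wide errors were those of Meg3 in brain poly-A libraries, 0.36 against 0.07, and of H19 in spleen total RNA, 0.72 against 0.24. Neat1 in liver poly-A libraries, a called value, had 0.25 against 0.14, larger than 97.6% of features of like level. In brain poly-A libraries the errors of Malat1, Neat1 and Miat were each larger than 98.9% of such features. In kidney poly-A libraries those of Malat1 and Neat1 were larger than 97.5% and 98.1%. Meg3 in heart, the member value with the smallest p, had an SE of 0.12, under the median of 0.16 for its level, and only 7.92% of features of like level had a smaller one.

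**Figure D5:**
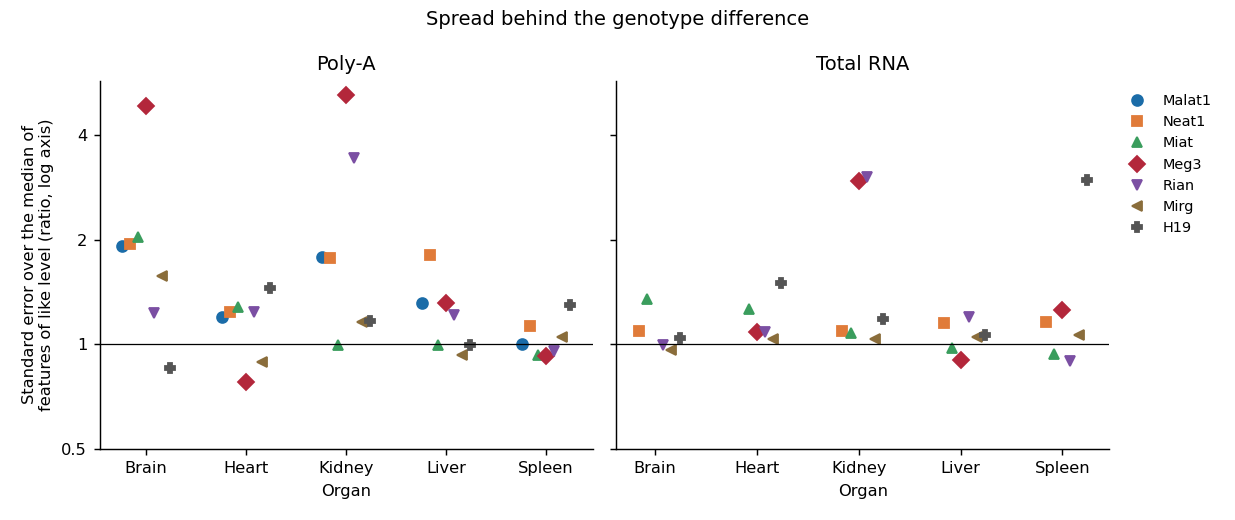
Standard error of each RNA's log2 fold change divided by the median standard error of features within 1.5-fold of its level (log axis), by organ, in poly-A libraries (left) and total RNA (right); values with fewer than 20 such features are not drawn. Meg3 and Rian in kidney, Meg3 in brain poly-A libraries and H19 in spleen total RNA stand at 2.96 or more, and the others at 2.04 or less.

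Whether the genotype change of an RNA differed between organs was tested with Cochran's Q over the 5 organs. None of the 14 values (7 RNAs in 2 kinds) passed after adjustment over all features, where 0.763% of 28568 poly-A features and 0.316% of 8218 lncRNA features passed. In poly-A libraries the smallest adjusted p-values (Benjamini-Hochberg, on the DESeq2 estimates) were 0.215 for Meg3, 0.225 for Malat1 and 0.365 for Rian. In total RNA the smallest was 0.562, for Rian. At an unadjusted p under 0.05, Meg3, Malat1, Rian and Neat1 passed in poly-A libraries and Rian in total RNA, as did 6.2% and 4.66% of all features. The fall of Meg3 in heart and that of Neat1 in liver are therefore not shown to differ from the values in the other organs, which came from the same mice.

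No listed gene that works with these RNAs or lies beside them was called, and 1 of the other lncRNAs was. The 8 lists hold paraspeckle proteins, nuclear speckle splicing factors, the RNase P and RNase Z subunits that cut the Malat1 end, Miat-bound splicing factors, the coding neighbours of Meg3 and of Malat1 and Neat1, the H19-Igf2 network and 30 other nuclear or imprinted lncRNAs. In poly-A libraries 1 entry was called in any organ, Snhg11 in liver, a host of snoRNAs, with -1.02 ± 0.15 in the authors' deposited table. That is 1 of 100 entries tested in liver, where 2.29% of all features were called, and 100 to 114 entries were tested in each organ. No paraspeckle protein was called in any organ by DESeq2, and 1 passed at an unadjusted p under 0.05, in liver, where 10.9% of all features did: there, where Neat1 fell, 21 were tested with a median of 0.04, and the value with the smallest p was that of Rbm3, a cold-induced RNA-binding protein, at -0.35 ± 0.15 in the authors' deposited table. No nuclear speckle factor was called by DESeq2 or passed an unadjusted p under 0.05 in any organ. Of all features, 0.0607% to 2.29% were called, depending on the organ, and 2.94% to 10.9% passed unadjusted. In spleen, where 0.0741% were called and 6.29% passed unadjusted, 19 speckle factors were tested with a median of -0.16. None of 8 coding neighbours of Meg3 tested in heart was called, where 0.541% of all features were. Their median was -0.11, and Dio3 had -3.08 ± 1.44 at a mean of 7.36 normalised counts in the authors' deposited table. The medians of the 8 lists lay between -0.31 and 0.20 in spleen, -0.16 and 0.11 in heart, -0.10 and 0.11 in liver, -0.07 and 0.04 in kidney, and -0.02 and 0.10 in brain. The medians over all features tested in these organs were between -0.01 and 0.01.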

How the data were processed

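Per the labels' protocols, frozen tissue powder was extracted with phenol, and Illumina stranded mRNA and total RNA kits were used. The submitters' processing notes name GRCm39, featureCounts, Subread 2.0.3 and DESeq2; alignment, annotation and the strand setting of counting are not given in the sources at hand, so that reads of overlapping or antisense genes are uncertain. The signal column, deposited by the authors, holds mean normalised counts over the 6 libraries, as DESeq2 writes them. The log2 fold change and its standard error, the Wald score, the p-value and the adjusted p-value were deposited by the authors as well. The score was the fold change over its standard error, within rounding. Features without a name took at most 0.00187% of a table's signal and were left out. Tables of snRNAs and tRNAs were not used.

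Computed here, with Python 3.11.15, pandas 2.3.3 and scipy 1.17.1, were levels in CPM (pseudocount of 0.01 for likeness) and 95% intervals (1.96 SE). So were the differences between kinds (z from both SEs) and organs (Cochran's Q), each adjusted over all features. Both tests were run on simulated fold changes with independent errors, whereas the real kinds and organs share mice. Planted log2 changes of 2 were recovered at 55% to 77% between kinds and at 89% to 90.5% between organs. Smaller changes were not planted. Member values were named in every organ, list genes by adjusted p under 0.05 or otherwise at most the 2 with the smallest p, and snoRNAs by their place between Meg3 and Mirg; a few marker genes were named after their values were seen. Sequences and chromosomes are from GENCODE M21 and RefSeq (GRCm38), a build other than that of the files. The members and lists were chosen with earlier results of these data known.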

Additional observations from a re-analysis of the deposited data

How the results depend on the processing

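The 2 poly-A calls between genotypes stayed at 2 with p-values adjusted over every feature with a p, over features at a mean of 10 or more, or over the 5 organs together, and became 3 with centred fold changes or a threshold of 0.10; Malat1 in spleen was the added one. Meg3 in heart passed in each of these. Over the 5 organs together Neat1 in liver was lost and Malat1 in spleen gained, at the adjusted p-values given with them. The counts of 0 in total RNA, between library kinds and between organs were 0 under each alternative run. The number of members' ratios of total RNA to poly-A above the median was 13, 15 against features at 100 or more, and 5 against the summed levels.

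No paired analysis was possible because the files hold no value per library, and leaving out each mouse was not run for the same reason. The 2 kinds and the 5 organs come from the same mice, which the tests treat as independent. Miat outside brain and Mirg outside brain and heart rest on low levels.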
